A study of Mus musculus with 3 samples.

Results

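A set of 10 genes of the Notch pathway was followed in the RNA-seq of induced cardiomyocytes (iCMs) made from cardiac fibroblasts of infarcted mouse hearts (MICFs). They are the receptors Notch1, Notch2, Notch3 and Notch4, the ligands Dll4 and Jag1, and the target genes Hes1, Hey1, Hey2 and Heyl. These are 10 of the 54532 genes in the deposited tables, taken by name, and each name matched 1 gene. None of their values was used to pick them, but the choice was made with earlier results of these libraries known.

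Notch signalling passes between touching cells. A ligand of the Delta or Jagged family on the surface of a cell binds a Notch receptor on its neighbour, and the receptor is then cut by an ADAM protease and by gamma-secretase. The freed intracellular part enters the nucleus and, together with the DNA-binding protein RBPJ and a Mastermind coactivator, switches on repressors of the Hes and Hey families. In the heart and its vessels the members are divided between cell types: Dll4 and Notch4 are best known from endothelium, Notch3 from pericytes and vascular smooth muscle, and Notch1 from many cell types, endothelium among them.

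The 3 libraries came from Myh6-mCherry mice, in which the cardiomyocyte promoter of Myh6 drives a red reporter. The animals were 8 weeks old at ligation of the coronary artery, and the fibroblasts were isolated 5 days after infarction. MICFs were grown for the same 4 weeks without virus. GMTMS-iCMs had received doxycycline-inducible Gata4, Mef2c, Tbx5, Myocd and Sall4, and the cocktail named GMTMM has Mesp1 in place of Sall4. Both kinds of iCM were sorted for mCherry after 4 weeks, and 5 sorted samples were mixed into 1 library for each cocktail. There was thus 1 library per condition, no difference has a replicate check, and no p-value is given. The sorted libraries differ from MICFs in virus, doxycycline medium and sorting at once, and these cannot be told apart.

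The libraries held 10624118 to 11904484 counts. MICFs had 0 counts of Sall4, GMTMS-iCMs 1190 and the library labelled GMTMM 1060, and Mesp1 had 0 in every library. The label GMTMM is at odds with these counts, so the name "library labelled GMTMM" is kept throughout and every direction drawn from it carries this limit. All 10 fibroblast markers examined were counted in MICFs, with a summed FPKM (fragments per kilobase of gene length, scaled to library size) of 1901. The 10 macrophage markers summed to 7977 FPKM in the same library, of which Lyz2 alone had 6135. The 16 endothelial markers summed to 719 FPKM there. The library's label of cardiac fibroblasts thus names only some of the cells whose markers were counted. In bulk RNA, fewer cells of a type and less RNA per cell cannot be told apart.

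Levels are given as deposited FPKM, which are per gene length and can be compared between genes. Differences are on the scale of log2 (quantile-normalized FPKM + 1), and a gene was called higher or lower where that difference was over 1. Folds are ratios of deposited FPKM with exact 95% Clopper-Pearson intervals, whose only source of error is the counting of reads. The 2 scales need not match, because quantile normalization gives the libraries equal distributions and the FPKM scaling does not. All 10 members reached 1 FPKM in at least 1 library.

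Against MICFs, GMTMS-iCMs had 1 member higher (Notch1), 6 lower (Notch3, Notch4, Dll4, Jag1, Hes1 and Hey1) and 3 called neither way. Among the 13919 genes with at least 1 FPKM in at least 1 library, 12.1% were called higher and 10.7% lower in this comparison, and over all 54532 genes the shares were 3.13% and 2.72%. The median difference of the members was -1.43, beside -0.04 over the 13919 genes. The library labelled GMTMM, whose label its factor counts contradict, had 2 members higher than MICFs (Hey1 and Heyl) and 0 lower. Of the 13919 genes 8.31% were called higher and 5.09% lower there, and of all genes 2.12% and 1.3%. The median difference over the members was 0.06, beside -0.08 over the 13919 genes. Both comparisons use the same MICF library. Counts of cell type markers called against MICFs, given below, are to be read beside the same shares.

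**Figure D1:**
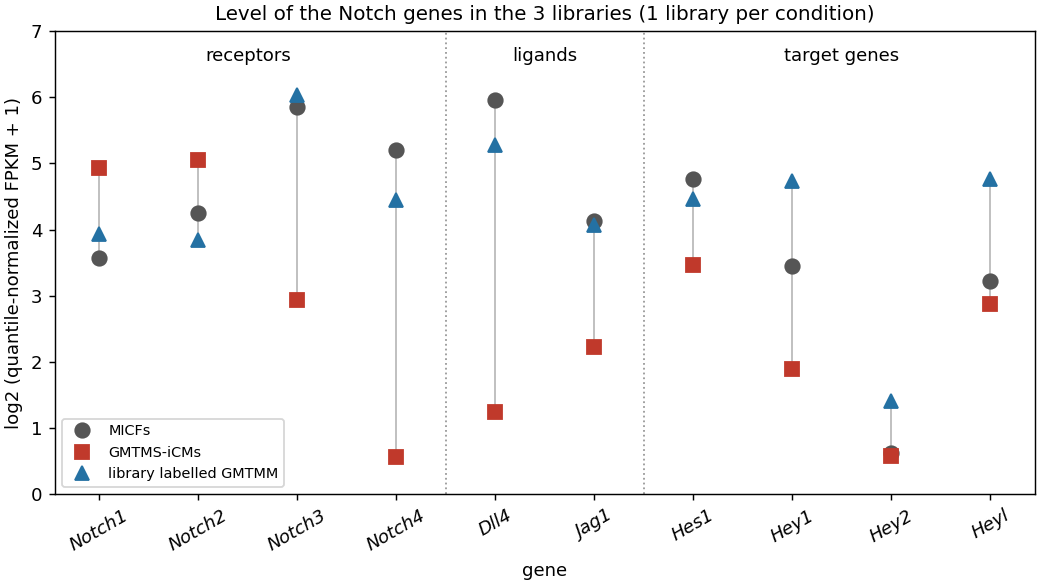
Level of each of the 10 Notch genes (x axis) as log2 (quantile-normalized FPKM + 1) (y axis) in MICFs (circles), GMTMS-iCMs (squares) and the library labelled GMTMM (triangles), with 1 library per condition and grey lines spanning the 3 values. GMTMS-iCMs lie highest for Notch1 and Notch2 and lowest for the other 8 genes.

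The receptors split in GMTMS-iCMs, with Notch1 and Notch2 on one side and Notch3 and Notch4 on the other. Notch4 (ENSMUSG00000015468, chromosome 17 from 34564268 to 34588503, plus strand, GRCm38 coordinates) had 3425 counts or 29.5 FPKM in MICFs, 32 counts or 0.427 FPKM in GMTMS-iCMs, and 2099 counts or 22.3 FPKM in the library labelled GMTMM. GMTMS-iCMs stand apart from both other libraries. The FPKM ratio was 69.1-fold lower than in MICFs (48.8 to 101) and the difference -4.64, which ranked 19 from the lowest among 13919 genes.

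Notch3 (ENSMUSG00000038146, chromosome 17 from 32120820 to 32166880, minus strand) was the most expressed receptor per length in MICFs, with 44.4 FPKM from 5137 counts. It had 488 counts or 6.53 FPKM in GMTMS-iCMs and 6614 counts or 70.4 FPKM in the library labelled GMTMM. GMTMS-iCMs were 6.79-fold lower than MICFs (6.19 to 7.47), with a difference of -2.92. The difference of 0.18 in the library labelled GMTMM was below the limit of 1, although its FPKM was 1.59-fold that of MICFs (1.53 to 1.65).

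Notch1 (ENSMUSG00000026923, chromosome 2 from 26457903 to 26516663, minus strand) had 2093 counts or 10.2 FPKM in MICFs, 4313 counts or 32.6 FPKM in GMTMS-iCMs, and 2495 counts or 15.0 FPKM in the library labelled GMTMM. GMTMS-iCMs were 3.19-fold higher than MICFs (3.03 to 3.37) with a difference of 1.37. Notch1 was the least expressed receptor per length in MICFs.

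Notch2 (ENSMUSG00000027878, chromosome 3 from 98013527 to 98150361, plus strand) had 2474 counts or 15.9 FPKM in MICFs, 3517 counts or 35.1 FPKM in GMTMS-iCMs, and 1754 counts or 13.9 FPKM in the library labelled GMTMM. It was the highest receptor in GMTMS-iCMs. Its FPKM was 2.20-fold that of MICFs (2.09 to 2.32), while the difference of 0.79 missed the limit of 1. Without quantile normalization, with TMM or with DESeq2 size factors Notch2 passed that limit, with values up to 1.14.

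Ratios between receptors within a library do not depend on how libraries are scaled to each other. Per length, Notch4 stood at 2.89 times Notch1 in MICFs (2.74 to 3.05), at 0.0131 times in GMTMS-iCMs (0.00895 to 0.0185) and at 1.49 times in the library labelled GMTMM (1.40 to 1.57). Notch3 stood at 4.34 times Notch1 in MICFs (4.13 to 4.57), 0.200 times in GMTMS-iCMs and 4.69 times in the library labelled GMTMM (4.48 to 4.91). The intervals of the Notch3 ratio overlap between MICFs and the library labelled GMTMM, and GMTMS-iCMs lie far below both. Of the summed receptor FPKM, Notch3 and Notch4 made up 44.3% and 29.5% in MICFs. GMTMS-iCMs had 8.74% of Notch3 and 0.572% of Notch4, beside 43.7% of Notch1 and 47.0% of Notch2. Notch3 alone made up 57.9% in the library labelled GMTMM.

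**Figure D2:**
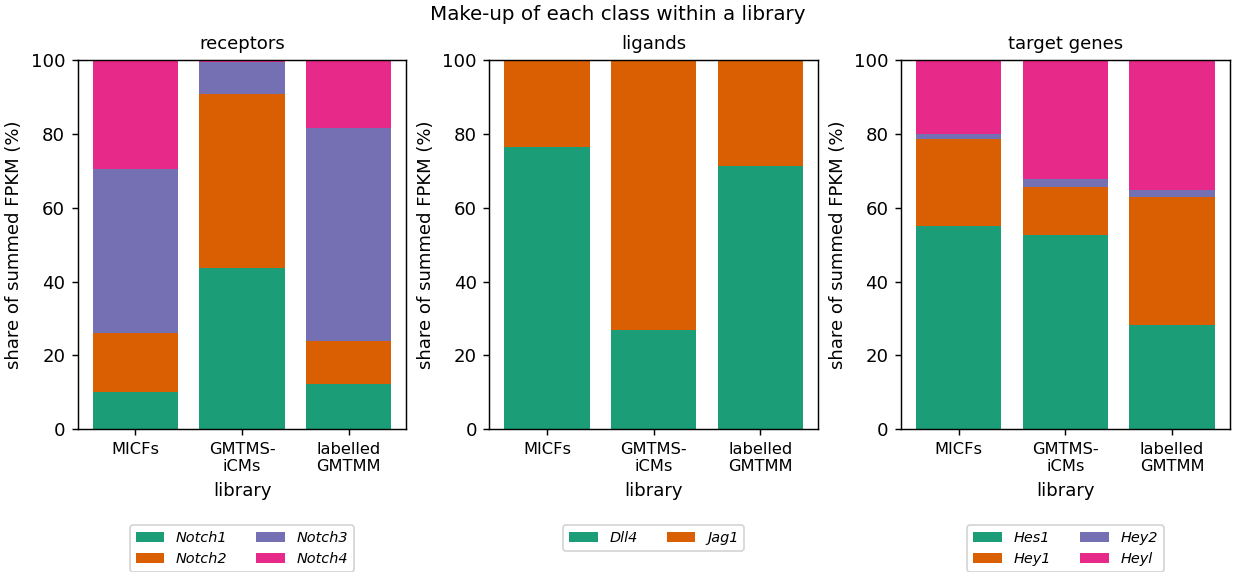
Share of each gene (colours) in the summed deposited FPKM of its class (y axis, percent, from 0) in each library (x axis), for receptors, ligands and target genes. The receptors of GMTMS-iCMs are mostly Notch1 and Notch2, the ligands change from Dll4 at 76.5% in MICFs to Jag1 at 73.0% in GMTMS-iCMs, and Hes1 goes from 55.0% of the targets in MICFs to 28.4% in the library labelled GMTMM.

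The ligands were both lower in GMTMS-iCMs. Dll4, the Delta ligand of endothelial tip cells and arteries (ENSMUSG00000027314, chromosome 2 from 119325784 to 119335962, plus strand), had 2652 counts or 47.8 FPKM in MICFs, 45 counts or 1.26 FPKM in GMTMS-iCMs, and 1846 counts or 41.0 FPKM in the library labelled GMTMM. The FPKM of GMTMS-iCMs was 38.0-fold lower than that of MICFs (28.3 to 52.3), and the difference of -4.72 was the largest of the 10 members on this scale, at rank 17 from the lowest of 13919 genes. In the library labelled GMTMM the difference was -0.68, short of the limit.

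Jag1, a Jagged ligand found on endothelial, smooth muscle and other cells (ENSMUSG00000027276, chromosome 2 from 137081456 to 137116644, minus strand), had 1232 counts or 14.7 FPKM in MICFs, 184 counts or 3.40 FPKM in GMTMS-iCMs, and 1130 counts or 16.6 FPKM in the library labelled GMTMM. GMTMS-iCMs were 4.32-fold lower than MICFs (3.70 to 5.07), with a difference of -1.91. Jag1 was therefore reduced less than Dll4: per length, Dll4 stood at 3.26 times Jag1 in MICFs (3.04 to 3.49) and at 0.370 times in GMTMS-iCMs (0.261 to 0.515). The difference of Jag1 in the library labelled GMTMM was -0.06 and turned positive, up to 0.18, with TMM, with DESeq2 size factors and with quantile normalization left out.

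Notch4 and Dll4 had the largest reductions of the members, so the 250 bases before their start sites are shown, from the RefSeq table for GRCm38.p6. These start sites can differ from the gene ends given in this report. The windows of Notch4, Notch2, Jag1 and Hey2 reach into the gene as given, and that of Notch1 lies wholly inside it. Capitals mark AGGAA or its reverse complement TTCCT. These letters are GGAA, the core bound by ETS factors such as the endothelial regulator Erg, with an A before it. The letters were chosen after the values were seen.
Notch4, chr17:34564045-34564294, plus strand: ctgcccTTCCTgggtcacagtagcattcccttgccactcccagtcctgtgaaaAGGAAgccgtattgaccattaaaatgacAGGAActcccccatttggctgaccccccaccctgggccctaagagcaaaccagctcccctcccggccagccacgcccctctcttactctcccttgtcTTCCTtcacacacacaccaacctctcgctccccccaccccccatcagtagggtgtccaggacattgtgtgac
Dll4, chr2:119325534-119325783, plus strand: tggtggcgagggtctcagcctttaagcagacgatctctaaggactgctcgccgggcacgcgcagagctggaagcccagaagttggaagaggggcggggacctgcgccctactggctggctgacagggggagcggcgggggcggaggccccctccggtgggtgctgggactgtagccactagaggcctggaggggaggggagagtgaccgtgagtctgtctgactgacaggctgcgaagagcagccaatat
The Notch4 window holds 4 matches and the Dll4 window 0. Of the other members in the table, Notch1, which was higher in GMTMS-iCMs, holds 3, Jag1 holds 2, and Notch2, Notch3 and Hey2 hold 0. Of 32851 mouse promoters of this length, 60.3% hold at least 1 match and 2.72% hold 4 or more. The windows of Dll4, Notch2 and Hey2 do hold GGAA or its reverse complement beside another letter. A window with 0 matches can thus still hold the core. A match is a stretch of letters and not a measured binding site.

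MICFs had 905 counts of Erg itself, GMTMS-iCMs 27 and the library labelled GMTMM 719. A role of Erg or of another ETS factor in the values of the members was not tested. All 16 endothelial markers examined, among them Pecam1, Cdh5, Cldn5 and Tie1, were below MICFs by over 1 in GMTMS-iCMs, at a median difference of -3.86. Their summed FPKM was 719 in MICFs, 529 in the library labelled GMTMM and 38.3 in GMTMS-iCMs, where Eng alone had 20.8. Of the 16, 5 were lower in the second of these than in MICFs (median -0.81). In GMTMS-iCMs, 2 of the 16 (Sox17 and Sox18) had 3 counts or fewer. Per length, Notch4 stood at 0.145 times Cdh5 (VE-cadherin) in MICFs (0.139 to 0.150), 0.106 times in GMTMS-iCMs (0.0703 to 0.156) and 0.151 times in the library labelled GMTMM (0.144 to 0.159). The intervals of this ratio overlap across the 3 libraries, but relative to Pecam1 MICFs lay above both others. Notch4 stood at 0.366 times Pecam1 in MICFs (0.351 to 0.381), 0.231 times in GMTMS-iCMs (0.151 to 0.346) and 0.329 times in the library labelled GMTMM (0.312 to 0.346). Dll4 stood at 0.234 times Cdh5 (0.225 to 0.244), 0.313 times (0.219 to 0.438) and 0.278 times (0.264 to 0.293), in the same order, and here the intervals of MICFs and the library labelled GMTMM do not overlap. Relative to Pecam1, Dll4 stood at 0.592 times (0.566 to 0.620), 0.680 times (0.469 to 0.972) and 0.605 times (0.573 to 0.639), with overlapping intervals. Dll4 stood at 1.62 times Notch4 in MICFs (1.54 to 1.71), 2.94 times in GMTMS-iCMs (1.83 to 4.78) and 1.84 times in the library labelled GMTMM (1.73 to 1.96), so the ratio of the pair in MICFs lay below both others. Jag1 differed more widely, at 0.0719, 0.845 and 0.113 times Cdh5, the marker with the lowest difference of the 16 (-5.81). This depends on the marker. The FPKM ratio of GMTMS-iCMs to MICFs was 0.231 for Jag1, 0.221 for Kdr and 0.251 for Eng. The rest of the 16 had lower ratios, with Tek the nearest at 0.180. Ratios of Notch4 and Dll4 to a marker depend on the marker as well. Their own FPKM ratios of GMTMS-iCMs to MICFs were 0.0145 and 0.0263, beside 0.0197 for Cdh5 and 0.0229 for Pecam1. Over the 16 markers that value ran from 0.00172 (Sox18) to 0.251 (Eng). The part of the endothelial markers in the values of Notch4 and Dll4 was not tested, and these ratios were chosen after the values were seen.

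**Figure D3:**
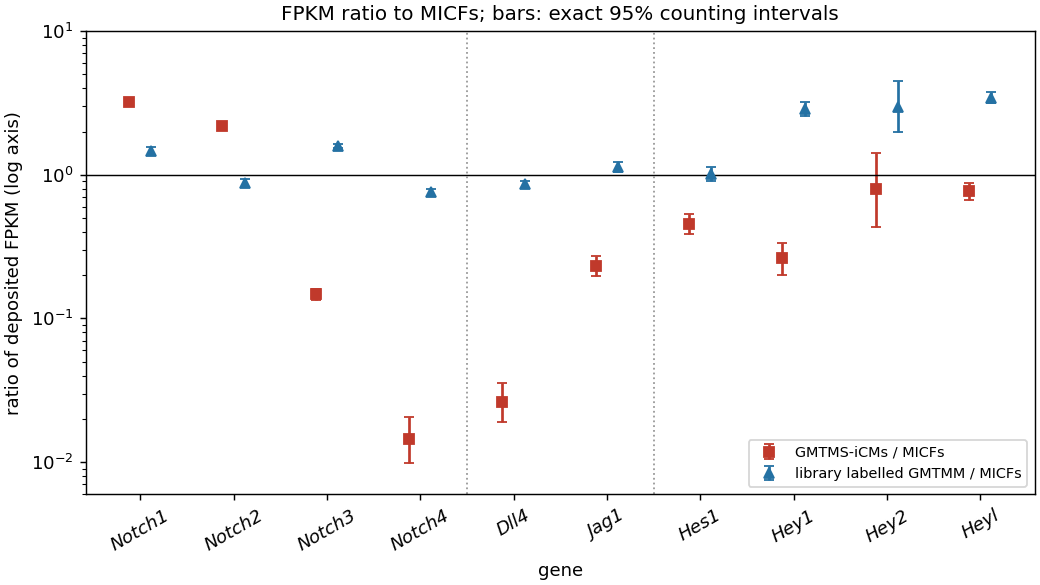
Ratio of deposited FPKM to MICFs (log y axis) for the 10 Notch genes (x axis) in GMTMS-iCMs (squares) and the library labelled GMTMM (triangles), with exact 95% intervals for counting error as bars and a line at 1. The ratio in GMTMS-iCMs falls to 0.0145 for Notch4 and 0.0263 for Dll4, whereas Hey1, Hey2 and Heyl lie near 3 or above in the library labelled GMTMM.

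All 4 target genes had negative differences in GMTMS-iCMs, of which those of Hes1 and Hey1 passed the limit, and in the library labelled GMTMM Hey1 and Heyl were higher than in MICFs. Hes1, the general repressor of the Hes family (ENSMUSG00000022528, chromosome 16 from 30064384 to 30067796, plus strand), had 648 counts or 22.1 FPKM in MICFs, 191 counts or 10.1 FPKM in GMTMS-iCMs, and 535 counts or 22.5 FPKM in the library labelled GMTMM. GMTMS-iCMs were 2.19-fold lower than MICFs (1.86 to 2.59), with a difference of -1.30. In the library labelled GMTMM its FPKM was 1.02-fold that of MICFs (0.905 to 1.14), within counting error, and the sign of its difference of -0.30 turned positive, to 0.02, without quantile normalization and with DESeq2 size factors.

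Hey1, a Hey repressor of heart and vessel development (ENSMUSG00000040289, chromosome 3 from 8663359 to 8667256, minus strand), had 444 counts or 9.45 FPKM in MICFs, 75 counts or 2.47 FPKM in GMTMS-iCMs, and 1040 counts or 27.3 FPKM in the library labelled GMTMM. The iCM libraries lie on opposite sides of MICFs. GMTMS-iCMs were 3.82-fold lower than MICFs (2.99 to 4.95; difference -1.56). The library labelled GMTMM was 2.89-fold higher than MICFs (2.58 to 3.23; difference 1.27).

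Heyl, the third Hey repressor and a gene of vascular smooth muscle (ENSMUSG00000032744, chromosome 4 from 123233556 to 123249875, plus strand), had 592 counts or 8.05 FPKM in MICFs, 293 counts or 6.17 FPKM in GMTMS-iCMs, and 1660 counts or 27.8 FPKM in the library labelled GMTMM. Its difference of -0.34 in GMTMS-iCMs was below the limit, with an FPKM ratio of 0.767 (0.664 to 0.883). The library labelled GMTMM was 3.45-fold higher than MICFs (3.14 to 3.80), with a difference of 1.55, the largest of the members there on this scale.

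Hey2, the Hey repressor of arteries and of compact ventricular muscle (ENSMUSG00000019789, chromosome 10 from 30832359 to 30842801, minus strand), was the least expressed member in MICFs, with 37 counts or 0.560 FPKM. It had 19 counts or 0.445 FPKM in GMTMS-iCMs, a ratio of 0.796 (0.432 to 1.42), and a change could not be detected at this depth. In the library labelled GMTMM it had 89 counts or 1.66 FPKM, a ratio of 2.96 (2.00 to 4.47). The difference there was 0.78 with a pseudocount of 1, and passed the limit with a pseudocount of 0.1, TMM or DESeq2 size factors, with values up to 1.54.

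Within a library, Hey1 stood at 0.427 times Hes1 per length in MICFs (0.378 to 0.483), 0.245 times in GMTMS-iCMs (0.185 to 0.322) and 1.21 times in the library labelled GMTMM (1.09 to 1.35). Heyl stood at 0.364 times Hes1 (0.325 to 0.408), 0.611 times (0.508 to 0.737) and 1.24 times (1.12 to 1.37), in the same order. In GMTMS-iCMs the ratio of Heyl was thus above that in MICFs and the ratio of Hey1 below it, each beyond counting error.

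The Hey2 promoter is shown because it alone among the 7 members in the promoter table (Notch1, Notch2, Notch3, Notch4, Dll4, Jag1 and Hey2) holds the core letters of an RBPJ site, TGGGAA or its reverse complement TTCCCA, in the 250 bases before the start site. Capitals mark the match.
Hey2, chr10:30842784-30843033, minus strand: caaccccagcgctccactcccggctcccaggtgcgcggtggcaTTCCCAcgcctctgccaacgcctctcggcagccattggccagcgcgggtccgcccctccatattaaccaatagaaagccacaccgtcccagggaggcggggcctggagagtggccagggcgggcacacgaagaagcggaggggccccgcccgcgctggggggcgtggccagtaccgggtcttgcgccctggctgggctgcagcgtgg
These letters are found in 21.6% of the 32851 promoters and in 1 of the 7 windows of the members.

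Markers of pericytes and smooth muscle were examined beside Notch3 and the Hey genes. Of the 12 examined, 6 were lower and 2 (Myh11 and Cnn1) higher in GMTMS-iCMs than in MICFs (median difference -1.08). Their summed FPKM was 495 in MICFs, 897 in the library labelled GMTMM and 427 in GMTMS-iCMs. Acta2 alone had 182, 445 and 300 FPKM of these sums, in the same order. Of the 12, the library labelled GMTMM had 4 higher than MICFs and 0 lower (median 0.75). MICFs had 1054 counts of the pericyte marker Rgs5, GMTMS-iCMs 134 and the library labelled GMTMM 3519. Per length, Notch3 stood at 0.525 times the mural receptor gene Pdgfrb in MICFs (0.506 to 0.545), 0.734 times in GMTMS-iCMs (0.644 to 0.836) and 0.619 times in the library labelled GMTMM (0.598 to 0.640), and none of these intervals overlap. Hey1 stood at 0.587 times Rgs5 (0.524 to 0.656), 0.779 times (0.579 to 1.04) and 0.411 times (0.384 to 0.441), in the same order. Relative to Rgs5, Notch3 went the other way than relative to Pdgfrb, at 2.75 times (2.58 to 2.95), 2.06 times (1.70 to 2.51) and 1.06 times (1.02 to 1.11). Heyl stood at 0.499 times Rgs5 (0.451 to 0.553), 1.94 times (1.58 to 2.40) and 0.419 times (0.395 to 0.445), with no overlap between intervals. The fall of both Hey ratios in the library labelled GMTMM depends on Rgs5, whose FPKM there was 4.11-fold that of MICFs. Pdgfrb was 1.35-fold that of MICFs there, below Hey1 (2.89-fold) and Heyl (3.45-fold). Relative to Pdgfrb both Hey genes thus rose. All 10 fibroblast markers, Pdgfra and Tcf21 among them, were below MICFs by over 1 in GMTMS-iCMs (median -3.00), and 1 of the 10 (Postn) exceeded MICFs in the library labelled GMTMM (median 0.20). Their summed FPKM was 1901 in MICFs, 3532 in the library labelled GMTMM and 516 in GMTMS-iCMs. The part of these cell types in the values of Notch3, Hey1 and Heyl was not tested.

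Markers of macrophages were also examined beside Notch1 and Notch2. The 10 macrophage markers had a summed FPKM of 7977 in MICFs, 7715 in the library labelled GMTMM and 16443 in GMTMS-iCMs. Lyz2 alone had 6135, 5495 and 11353 FPKM of these sums, in the same order. Its difference between GMTMS-iCMs and MICFs on the quantile-normalized scale was 0. In GMTMS-iCMs 3 of the 10 markers (Cd14, Ptprc and Itgam) were higher than in MICFs and 0 lower (median 0.49). Of the 13919 genes, 12.1% were higher and 10.7% lower there. In the library labelled GMTMM 1 marker was higher and 1 lower (median -0.63), beside 8.31% and 5.09% of those genes. Per length, Notch2 stood at 0.0520 times the macrophage receptor gene Csf1r in MICFs (0.0498 to 0.0542), 0.0593 times in GMTMS-iCMs (0.0572 to 0.0614) and 0.0619 times in the library labelled GMTMM (0.0589 to 0.0651). Notch1 stood at 0.0333 times Csf1r in MICFs (0.0318 to 0.0348), 0.0551 times in GMTMS-iCMs (0.0533 to 0.0569) and 0.0667 times in the library labelled GMTMM (0.0639 to 0.0696), with no overlap between the intervals of Notch1. The FPKM of GMTMS-iCMs was 1.93-fold that of MICFs for Csf1r, 2.20-fold for Notch2 and 3.19-fold for Notch1. Cd68, Aif1, Lyz2 and Tyrobp also rose less than Notch2 (1.64-fold to 2.16-fold). Adgre1, Ptprc, Itgam, Fcer1g and Cd14 rose more than Notch2 (2.43-fold to 14.2-fold), and Cd14 also more than Notch1. The direction of the Notch2 ratio thus depends on the marker. The 10 cardiomyocyte markers all exceeded MICFs by over 1 in GMTMS-iCMs (median difference 4.64), and 9 did in the library labelled GMTMM. Their summed FPKM was 2.68 in MICFs, 527 in the library labelled GMTMM and 1425 in GMTMS-iCMs. The part of either cell type in the values of Notch1 and Notch2 was not tested.

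Between the transduced libraries, which share the sort for mCherry, 2 members were higher in GMTMS-iCMs (Notch1 and Notch2), 7 were lower and Hey2 was called neither way. Among the 13919 genes, 9.01% were higher and 11.1% lower in this comparison, and of all genes 2.33% and 2.84%. The label of the second library is at odds with its factors. The median of the members was -1.87, beside 0.10 over the 13919 genes. Dll4 was 32.6-fold lower (24.3 to 44.9), Notch4 52.2-fold lower (36.8 to 76.5) and Notch3 10.8-fold lower (9.83 to 11.8) in GMTMS-iCMs. Hey1 had a difference of -2.84, Heyl of -1.89 and Jag1 of -1.85. Notch1, with a difference of 1.00, and Hes1, with -1.01, lay at the limit and crossed it under other settings. Notch2 was 2.52-fold higher (2.38 to 2.67), with a difference of 1.20.

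The rest of the pathway was examined through 70 further genes listed by role, of which 58 reached 1 FPKM in at least 1 library. In GMTMS-iCMs against MICFs, 6 were higher, 11 lower and 53 neither, with a median of -0.07. Of the 13919 genes 12.1% were higher and 10.7% lower there, and of all genes 3.13% and 2.72%. In the library labelled GMTMM against MICFs, 4 were higher, 2 lower and 64 neither, beside 8.31% higher and 5.09% lower of the 13919 genes. Of all genes the shares were 2.12% and 1.3%. The counts by list that follow are to be read beside these shares. Counts below are in the order MICFs, GMTMS-iCMs, library labelled GMTMM.

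Of the 8 other ligands and ligand-like genes, 3 were lower and 0 higher in GMTMS-iCMs. Jag2, the second Jagged ligand, had 376, 33 and 246 counts and was 7.35-fold lower in GMTMS-iCMs than in MICFs (5.15 to 10.8). Mfap5 and Mfap2, microfibril proteins reported to bind Notch or Jagged proteins, were 11.7-fold (7.86 to 18.3) and 5.28-fold lower (3.65 to 7.89). Dll1 had 57, 17 and 36 counts with a difference of -0.35, and no library had more than 6 counts of Dll3, Dlk1, Dlk2 or Dner.

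Of the 5 genes that attach sugars to the receptors, 1 was lower. Mfng, a Fringe enzyme, had 260, 56 and 154 counts and was 3.00-fold lower in GMTMS-iCMs than in MICFs (2.24 to 4.08). Lfng, another Fringe enzyme, had 857, 1492 and 802 counts, and its difference of 0.99 in GMTMS-iCMs lay just under the limit.

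Of the 10 genes of proteolytic processing, 1 was higher and 0 were lower. Furin, the convertase that makes the first cut of the receptor, had 2282, 4454 and 3130 counts and was 3.02-fold higher in GMTMS-iCMs than in MICFs (2.87 to 3.18). The ADAM proteases that make the second cut lay on opposite sides of 0, with differences of -0.999 for Adam10, just inside the limit and not called, and 0.93 for Adam17.

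Of the 12 genes of trafficking and degradation, 1 was higher. Dtx2, a Deltex ubiquitin ligase, had 232, 745 and 540 counts and was higher than in MICFs in both transduced libraries, the difference being 1.95 for GMTMS-iCMs, against 1.22 in the library labelled GMTMM. Numbl, related to the Notch inhibitor Numb, had 334, 112 and 703 counts, with a difference of -0.50 for GMTMS-iCMs, against 1.12 in the library labelled GMTMM.

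Of the 10 genes of the nuclear complex, 1 was higher in GMTMS-iCMs. Rbpj, the DNA-binding partner of every Notch receptor, had 1413 counts or 7.70 FPKM in MICFs, 3949 counts or 33.3 FPKM in GMTMS-iCMs, and 1947 counts or 13.1 FPKM in the library labelled GMTMM. GMTMS-iCMs were 4.33-fold higher than MICFs (4.07 to 4.60), with a difference of 1.81. The Mastermind genes Maml1, Maml2 and Maml3 had differences of 0.27, -0.08 and -0.04. Of the 11 corepressor genes, Tle3 (3.03-fold, 2.86 to 3.22) and Spen (2.49-fold, 2.32 to 2.66) were higher, and Tle2 (3.69-fold, 2.90 to 4.74) was lower in GMTMS-iCMs than in MICFs.

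Of the 14 other genes described as Notch targets, 6 were lower and 1 higher in GMTMS-iCMs. Efnb2, the arterial ephrin, had 2225, 98 and 2321 counts and was 14.7-fold lower in GMTMS-iCMs than in MICFs (12.0 to 18.1), with a difference of 0.02 in the library labelled GMTMM. Snai1 and Snai2, repressors of epithelial genes, were 13.0-fold (8.63 to 20.5) and 21.2-fold lower (9.56 to 58.5), and Ccnd1, cyclin D1, was 3.08-fold lower (2.74 to 3.47). The remaining lower genes were Nrarp, a feedback inhibitor of Notch with 186, 24 and 166 counts, and Gata2, with 159, 3 and 50 counts. Bhlhe40, higher in both transduced libraries, had 852, 1838 and 4861 counts. No library had more than 4 counts of Hes2, Hes3, Hes5 or Hes7.

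**Figure D4:**
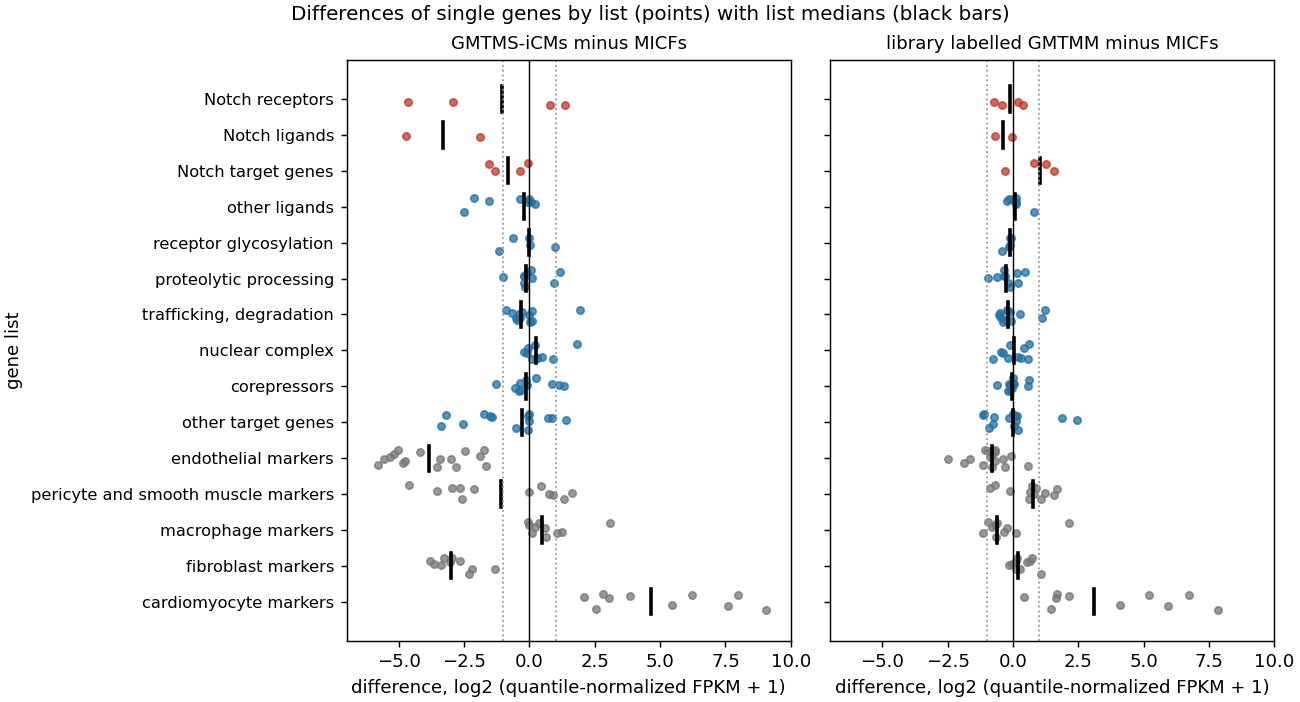
Difference from MICFs on the log2 (quantile-normalized FPKM + 1) scale (x axis) for each gene (points) of the Notch members, the 70 other pathway genes and the cell type markers, by list (y axis), in GMTMS-iCMs (left) and the library labelled GMTMM (right), with list medians as black bars and dotted lines at differences of 1 either way. The Notch ligands lie within the range of the endothelial markers in GMTMS-iCMs (-5.81 to -1.67). Jag1 (-1.91) also lies within those of the fibroblast (-3.82 to -1.30) and of the pericyte and smooth muscle markers (-4.62 to 1.62). Dll4 (-4.72) lies below both of these, but within its counting error (0.44) of Mcam (-4.62), the lowest of the pericyte and smooth muscle markers. The medians of the lists for proteolytic processing (-0.15 and -0.27) and the nuclear complex (0.24 and 0.04) lie near 0 in the left and right panels.

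The genes most like each member were found over the 3 libraries by the distance between their pairs of differences from MICFs, among 11530 protein-coding genes with at least 100 counts. With 3 libraries this is a description only. For Dll4 the nearest genes were Trp53i11, the endothelial receptor Tie1 and Mcam, and for Notch4 they were Mcam, Trp53i11 and Dll4. Mcam is in the list of pericyte and smooth muscle markers used here. Jag1 was nearest to Pald1, Ece1 and the angiopoietin receptor Tek. For Notch3 they were Fstl1, Col15a1 and Tmem119. Those of Hey1, at distances of 0.246 to 0.276, were Il1r1, Mfap4 and Rtn4rl2, and Heyl was nearest to Cpz, Bdnf and Kazald1. For Notch1 they were Eif2ak2, Sh3bp2 and Pitpnc1, for Notch2 Prrg4, Htt and Ankrd44, and for Hes1 Ccdc68, Pcdhb7 and Fads3, the first pair of which had 2 counts each in GMTMS-iCMs.

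Overlap of the members with other annotated genes was also examined. No exon base of Notch4, Jag1, Hes1, Hey1, Hey2 or Heyl lies in an exon of another annotated gene, and 5.02% to 9.76% of those of Notch1, Notch2, Notch3 and Dll4 do. The overlapping genes had at most 7 counts in any library, except Gm14207 on the strand opposite Dll4, with 62, 3 and 41 counts in the order used above. Of the 50-base stretches of the longest Notch2 transcript, 3.86% also occur in Gm42820, and for Notch3 0.0879% occur in Gm30232. Whether counting used strand is not given in the sources used here, so reads of Gm14207 and Dll4 in the shared 5.56% cannot be told apart. How reads in 2 genes were counted is not given either. The low counts of the overlapping genes therefore do not show how many reads of Notch1, Notch2, Notch3 or Dll4 were left out.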

How the data were processed

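Gene counts and FPKM of 3 mouse libraries were used, from paired reads of 150 nucleotides. The submitters' processing notes name HISAT2 2.0.5 and the build mm9. The counting tool and its use of strand are not given in the sources used here. Of the deposited genes 54409 are in GENCODE M21, and 98.3% of these have its GRCm38 start and end, so coordinates are given as GRCm38. The authors deposited raw counts per gene, without normalization. The FPKM that the authors deposited were scaled by DESeq2 size factors (1.26 for MICFs, 0.811 for GMTMS-iCMs, 1.02 for GMTMM) and not by library totals. The MICF column carries an abbreviation and was matched because every other column names a cocktail.

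Following the study's methods, FPKM were quantile-normalized over the libraries (here with ties averaged), then transformed as log2 (value + 1). Calling pairwise differences over 1 was a choice made here: the study used that size to filter genes before clustering. No fit across replicates was possible. A count of 0 allows up to 3 counts, 0.252 to 0.282 CPM. Alternatives were TMM log2 CPM (prior count of 2), DESeq2 size factors, a pseudocount of 0.1, thinning to the smallest total, log2 taken first, omission of quantile normalization, genes with at least 1 FPKM in at least 1 library, and limits of 2 or 1.5-fold.

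The members and lists were chosen with earlier results of these data known. Named were the members, up to 4 genes per pathway list (over 10 counts in the higher library, largest difference between GMTMS-iCMs and MICFs) and, for each member that spanned over 1, the 3 nearest protein-coding genes. Other pathway and marker genes named singly were chosen after their values were seen. Promoters came from RefSeq for 7 of the 10 members. The steps were tested on simulated data. R 4.3.3 was used with DESeq2 1.42.0 and edgeR 4.0.16, and Python 3.11.15 with SciPy 1.17.1, pandas 2.3.3, numpy 2.4.6 and matplotlib 3.10.9.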

Additional observations from a re-analysis of the deposited data

Results flagged for a closer look

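Genes that differed from MICFs by over 1 in opposite directions in the transduced libraries were looked at again. The difference between the libraries was not tested, since each is a single library, and the label GMTMM is at odds with the factors counted there. For Hey1 the difference was -1.56 in GMTMS-iCMs, against 1.27 in the library labelled GMTMM. The pericyte marker Rgs5 had -2.12 and 1.67, and the fibroblast marker Postn had -2.33 and 1.06, in the same order. Both differences of each gene share the same MICF library.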

How the results depend on the processing

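No paired analysis was possible because every group is a single library, and for the same reason no replicate could be left out. Of 75 values of the comparisons under alternatives, 59 stayed close to the reported value, 16 moved and 0 took the other sign as called values. A count of members was held close where it changed by at most 1.5-fold, and a median where it moved by less than counting error. Of 210 values of single members, 141 stayed within counting error, 69 moved and 0 called values reversed. Against MICFs, the members higher in GMTMS-iCMs went from 1 to 2 with TMM, with DESeq2 size factors, with quantile normalization left out and at 1.5-fold, the added member being Notch2, and to 0 at a difference over 2, where the lower members went from 6 to 3. In the library labelled GMTMM, the higher members went from 2 to 0 at a difference over 2, and the lower from 0 to 2 at 1.5-fold. The higher members went to 3 with a pseudocount of 0.1, with TMM, with DESeq2 size factors and at 1.5-fold, the added member being Hey2. The median of the members there moved from 0.06 to 0.34 with TMM, 0.37 with DESeq2 size factors and 0.34 with quantile normalization left out, while the median of the 13919 expressed genes moved from -0.08 to 0.00, 0.03 and 0.02. Between the transduced libraries, the higher members went from 2 to 1 with log2 before quantile normalization, where Notch1 fell to 0.99, and to 0 at a difference over 2, where the lower went from 7 to 4, and the median moved from -1.87 to -2.28 with TMM and -2.23 with DESeq2 size factors. In that last comparison the lower members also went from 7 to 6 with log2 before quantile normalization and with thinning. They went to 8 with a pseudocount of 0.1, with TMM, with DESeq2 size factors and at 1.5-fold. The cause of these moves was not tested, apart from those made by a stricter or looser limit. The deposited FPKM carry the DESeq2 size factors. The settings with those factors and with quantile normalization left out thus share a scaling and are not separate checks. Shares over all genes were computed only for the reported scale and a difference over 1. The counts of members under other settings have no such share beside them. Depth limits Hey2 most, with 19 to 89 counts.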
